A study of Mus musculus with 2 samples.

Results

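The serpins are a family of proteins of which most inhibit proteases. The genes were chosen by name and annotation, as protein-coding rows whose symbol starts with Serpin, a clade letter from a to i and a number, leaving out the complement inhibitor Serping1. There are 60 such genes among 54532 in the table. Both libraries are of stromal cells sorted from the bone marrow of CB6F1 mice, an F1 hybrid, which served as recipients. The recipients were female and had 2 irradiations of 4 Gy, followed after 4 hours by marrow cells of B6.SJL mice. The BMT library comes from mice with this transplant alone, and the aGVHD_V library from mice that also received spleen cells of female C57BL/6 mice, given to produce acute graft-versus-host disease. Each group has 1 library, so the differences below have no replicate check and no test was made. The sources used here give neither the number or age of the mice nor the meaning of the V. The series is titled as single-cell sequencing, but the table holds 1 value per gene and library.

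Most serpins act as suicide inhibitors: the target protease cuts an exposed loop, the serpin springs into a new shape, and the protease is trapped on it by a covalent bond. Clade A holds secreted proteins related to antitrypsin and antichymotrypsin, clade B holds proteins that mostly stay inside the cell, and clade E holds the inhibitors of plasminogen activators. Some members inhibit nothing, among them Serpinh1, a chaperone of collagen, and Serpinf1, the secreted pigment epithelium-derived factor. In marrow the family is known for protecting neutrophils and killer lymphocytes from their own granule proteases, and for controlling proteases outside the cell.

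The sort removed cells carrying CD45, lineage antigens or CD71, yet transcripts of blood cells remained plentiful. Of the 11 genes on a list of neutrophils and their precursors all lay within 2-fold, by the rule for calls given below. Their FPKM (fragments per length of gene and depth of library) summed to 15190 (BMT) and 20206 (aGVHD_V). Other blood lists were unequal, with 5 of 8 erythroid genes higher (summed FPKM 44156 against 164471), 5 of 7 measured megakaryocyte genes higher and 1 lower (83.4 against 281), 3 of 6 mast cell and basophil genes higher (81.6 against 197), and 6 of 7 measured B and plasma cell genes lower and 1 higher (74.2 against 13.7). Of 8 monocyte and macrophage genes 1 was lower and 7 within 2-fold (278 against 343), and the pan-leukocyte gene Ptprc was at 9.28 against 7.85. The part of these lists in the serpin values was not tested. The mesenchymal stromal list (10 of 10 genes lower) summed to 609 against 30.1, and the stromal marker Lepr had no reads in the aGVHD_V library. The endothelial list (5 of 7 lower, none higher) summed to 65.2 against 14.6, with no reads there for Cdh5, Kdr and Tek. The BMT library held 10869191 reads over 15477 genes, and the aGVHD_V library 11299834 reads over 12310 genes, as recovered from the FPKM. Fewer cells of a type and less RNA in each cell cannot be told apart in such libraries.

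A gene counted as measured if either library reached an FPKM of 1, and was called lower or higher (aGVHD_V against BMT) where log2(FPKM + 1) differed by 1 or more. Measured genes with a smaller difference on this scale are called within 2-fold. At low levels the plain FPKM ratio of such a gene can exceed 2-fold. Of the 13 measured serpins 6 were lower and 7 within 2-fold, and no serpin was higher. Over all 12942 measured genes, 19.4% were lower and 8.65% higher, over the protein-coding ones 16.3% and 5.59%, and over genes reaching an FPKM of 5, 10.7% and 7.7%. Reads were found for 19 of the 60 serpins under BMT and for 10 of these under aGVHD_V. The 9 with BMT reads alone were 47.4% of the 19, against 19.2% of protein-coding genes with BMT reads. These shares are not matched for level. Of the 9, 8 had a BMT FPKM from 0.2 to under 1.5, where 56.3% of protein-coding genes had no aGVHD_V reads. No serpin had aGVHD_V reads alone, and 2.17% of protein-coding genes with aGVHD_V reads did. The median difference of the 13 serpins was -0.74 on the log2(FPKM + 1) scale (from -3.53 to 0.44), against -0.07 over all measured genes. The count of 6 became 10 with FPKM sums made equal, where 33.8% of all measured genes were lower, and 3 with read-less genes placed at the floor, where 7.63% were. Members that passed only through their level in the BMT library had to come out low, so the count describes these libraries and is no support for a change of the family.

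**Figure D1:**
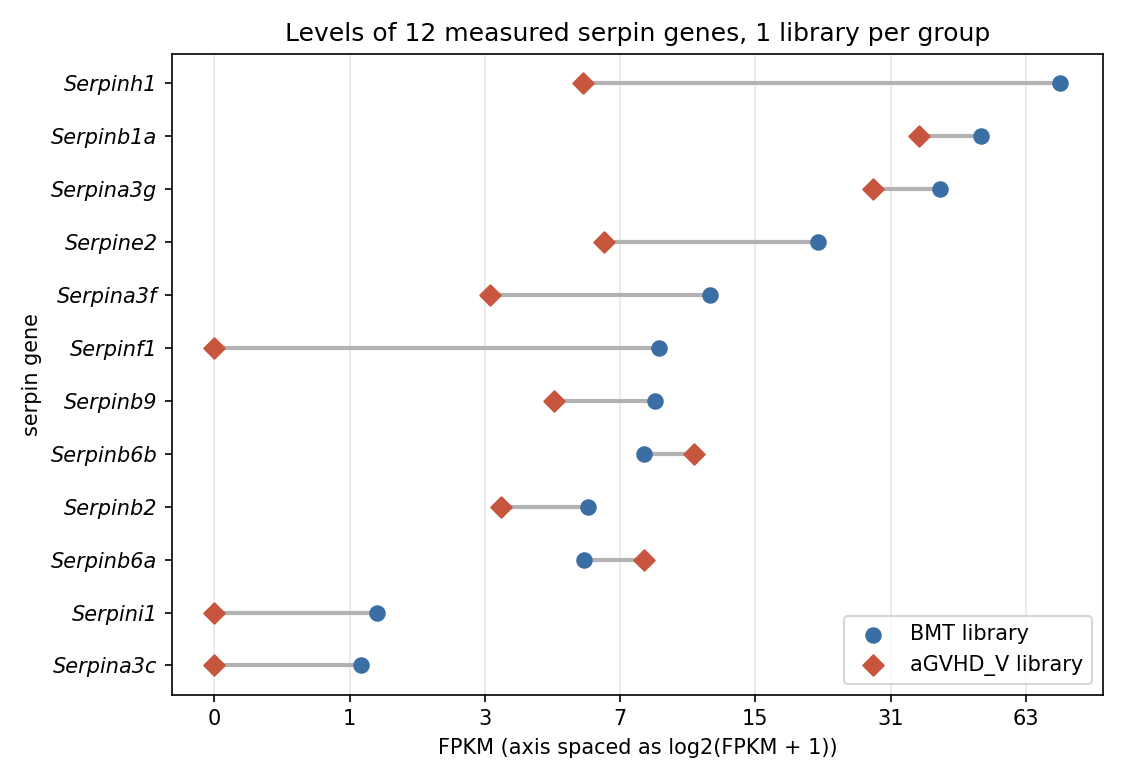
FPKM of 12 of the 13 measured serpins for BMT (circles) and aGVHD_V (diamonds), 1 value per gene and library, on an axis spaced as log2(FPKM + 1). Serpinh1 runs from 75.3 to 5.61, and Serpinf1, Serpini1 and Serpina3c lie at 0 in the aGVHD_V library.

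Intervals were computed in 2 ways. Counting each read once gives narrow limits. Detected genes most often had 14 reads (BMT) or 44 reads (aGVHD_V), here called the modal read number, so reads may stand for fewer starting molecules. The widened 95% interval (exact conditional binomial) divides the reads by these numbers first. It lay below a ratio of 1 for 3 of the 13 measured serpins, Serpinh1, Serpine2 and Serpinf1, and above 1 for none. Over all measured genes it lay below 1 for 4.57% and above 1 for 6.03%. All intervals cover counting error only and hold no variation between mice.

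The sequences that bear on this account belong to Serpina3g and Serpina3f, the 2 expressed neighbours of the Serpina3 block on chromosome 12, and to Serpinh1, the highest serpin of the BMT library. The first comparison shows where reads can tell the Serpina3 neighbours apart. Their coding sequences in GENCODE M21 (GRCm38) were 87.4% identical over the 744 aligned bases. The longest complete coding sequence annotated for each gene was used, of 744 bases for Serpina3g and 1335 for Serpina3f. The identity thus covers only part of the Serpina3f sequence. The Serpina3g sequence used is shorter than those of the other measured serpins (1122 to 1335 bases). The stretch of 90 bases with the most differences, 22, lies in the last part of each coding sequence, at chr12:104241203-104241292 for Serpina3g and chr12:104220379-104220468 for Serpina3f, both on the plus strand. Capitals mark the bases that differ.
Serpina3g: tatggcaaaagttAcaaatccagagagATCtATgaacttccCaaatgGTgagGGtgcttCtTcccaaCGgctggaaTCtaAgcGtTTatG
Serpina3f: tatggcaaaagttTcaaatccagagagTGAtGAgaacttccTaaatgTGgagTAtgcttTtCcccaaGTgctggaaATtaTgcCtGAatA
Reads from this stretch would separate the genes, whereas 15.5% of the 50-base words of Serpina3g transcripts and 10.6% of those of Serpina3f also occur in transcripts of other genes. Serpina3g shared such words with Serpina3f, Serpina3i and the pseudogenes Serpina3h and Serpina3e-ps, so the division of reads within the block is uncertain. How shared reads were treated is not stated in the labels.

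The promoter windows (RefSeq, GRCm38.p6, 250 bases before to 50 after the annotated start) are shown because these neighbours have 1 searched element in common. Capitals mark matches to TTCNNNGAA, the palindrome bound by STAT factors, and to TATAAA, searched on both strands. They are chr12:104235897-104236196 on the plus strand for Serpina3g, chr12:104214294-104214593 on the plus strand for Serpina3f and chr7:99353190-99353489 on the minus strand for Serpinh1.
Serpina3g: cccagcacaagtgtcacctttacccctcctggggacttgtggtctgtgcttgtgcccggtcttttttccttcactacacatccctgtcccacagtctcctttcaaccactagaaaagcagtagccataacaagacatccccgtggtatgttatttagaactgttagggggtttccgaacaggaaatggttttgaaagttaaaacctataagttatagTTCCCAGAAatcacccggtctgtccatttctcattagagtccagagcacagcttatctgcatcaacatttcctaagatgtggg
Serpina3f: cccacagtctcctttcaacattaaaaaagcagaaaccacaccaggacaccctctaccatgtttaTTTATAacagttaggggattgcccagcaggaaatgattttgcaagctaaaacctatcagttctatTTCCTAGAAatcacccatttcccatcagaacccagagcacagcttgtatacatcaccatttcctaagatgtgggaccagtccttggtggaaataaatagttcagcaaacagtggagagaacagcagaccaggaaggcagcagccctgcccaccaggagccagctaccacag
Serpinh1: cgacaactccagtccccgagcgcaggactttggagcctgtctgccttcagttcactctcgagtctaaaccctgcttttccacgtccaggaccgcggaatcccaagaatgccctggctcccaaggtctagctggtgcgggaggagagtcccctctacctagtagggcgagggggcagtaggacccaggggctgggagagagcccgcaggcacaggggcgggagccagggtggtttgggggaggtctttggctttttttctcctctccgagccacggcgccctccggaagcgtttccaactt
The STAT palindrome was present in the windows of Serpina3g, 33 bases before the start, and Serpina3f, 121 bases before it. A further Serpina3f window, chr12:104214383-104214682, is not printed. It held the same site 210 bases before its start, and no TATAAA. Serpinb1a had no entry. The 11 measured serpins with an entry had 14 windows, and 6 of these held the palindrome (Serpinb6a and Serpinb2 besides these genes), against 8.3% of all 32851 promoter windows. Windows of 1 gene can overlap and hold the same site, so the 6 windows belong to 4 genes. The Serpinh1 window held none of the motifs searched, which were also GAANNTTC (paired heat shock units, 7.86% of all windows) and TGANTCA (AP-1, 7.81%), and TATAAA was in 13.6% of all windows. These matches describe letters in a window, and binding was not measured.

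Serpinh1 (ENSMUSG00000070436, chromosome 7, 99345376 to 99353239, minus strand) encodes HSP47, which sits in the endoplasmic reticulum and holds the collagen triple helix while it forms. Its FPKM was 75.3 (BMT, 2231 reads) against 5.61 (aGVHD_V, 146 reads). It ranked 1 of the serpins under BMT and 7 under aGVHD_V. The difference was 13.4-fold lower, with a widened interval from 4.73-fold to 59.3-fold lower and an interval of single reads from 11.4-fold to 16-fold. No other gene was found to share a 50-base word with Serpinh1 transcripts in GENCODE M21. The mesenchymal and endothelial lists, whose sums are given above, were lower in the same library, and their part in the result was not tested.

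The collagen genes and folding enzymes that work with this chaperone were given by a list of 20. Of 19 measured, 11 were lower and 8 within 2-fold (median difference -1.85). Among the 9 collagen chains 8 were lower, and among the 10 enzymes and helpers 3 were lower and 7 within 2-fold. The chains of type I collagen, which are also on the mesenchymal list, were lower. Col1a1 was at an FPKM of 23.2 against 2.47 and Col1a2 at 33.9 against 1.39. Col6a1, a chain of type VI collagen, was at 60.9 against 5.76. Crtap, a partner of the prolyl 3-hydroxylase complex, was at 18.9 against 0.794, the latter on 15 reads, below the floor of 132. P4hb, the protein disulfide isomerase that is also a subunit of prolyl 4-hydroxylase and is used by many secretory cells, was at 161 against 148.

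Serpinf1 (ENSMUSG00000000753, chromosome 11, 75409769 to 75422701, minus strand) encodes pigment epithelium-derived factor, which restrains vessel growth and is made by bone-forming cells. Its FPKM was 8.74 (BMT, 250 reads) against 0 (aGVHD_V). The widened interval began at 1.22-fold lower. Set against a floor of 132 aGVHD_V reads, 3 times the modal read number, and with no counting error in the BMT value, it was at least 1.67-fold lower. Of 6 serpins with a BMT FPKM from 5 to under 15 it was the 1 lacking aGVHD_V reads, as did 3.6% of all 3448 protein-coding genes in that range. The same stromal and endothelial lists were lower beside Serpinf1 and Serpine2, and their part was not tested. Serpinf2, which encodes the main plasmin inhibitor of blood, had 7 reads under BMT and 0 under aGVHD_V.

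Serpine2 (ENSMUSG00000026249, chromosome 1, 79794197 to 79861180, minus strand) encodes protease nexin, which inhibits thrombin and the plasminogen activators at the cell surface. Its FPKM was 21.1 (BMT, 2118 reads) against 6.36 (aGVHD_V, 562 reads). It was 3.31-fold lower, with a widened interval from 1.87-fold to 6.41-fold lower. Serpine3 had no reads in either library.

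Serpinb2 (ENSMUSG00000062345, chromosome 1, 107511423 to 107535478, plus strand) encodes an inhibitor of urokinase that is induced in activated monocytes and mast cells. Its FPKM was 5.79 (BMT, 165 reads) against 3.35 (aGVHD_V, 84 reads). The second number is below the floor, and the widened interval of the ratio (0.579) ran from 0.0584 to 2.68. Its annotation overlaps that of Serpinb10, annotated as a polymorphic pseudogene, on the same strand, and 10.4% of its 50-base words are shared with that gene. Serpinb10 had an FPKM of 1.3 and 1.96.

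The targets and receptors of these inhibitors were measured as well. Plaur, the receptor that holds urokinase on the cell, was at 47.9 (BMT) against 82.5 FPKM (aGVHD_V). Plau, urokinase itself, was at 4.77 against 1.62, on 41 reads in the latter, and its widened interval (0.00623 to 2.52) included no difference. Plat, the tissue-type activator, was below an FPKM of 1 in both (0.859 and 0). Lrp1, the endocytic receptor that clears serpin and protease complexes, was 4.85-fold lower (13.2 against 2.72, widened interval from 2.69-fold to 9.63-fold lower). Vtn, vitronectin, an adhesive protein of plasma and matrix, was at 2.68 against 0, on too few BMT reads (66) for a bound above 1. On the plasminogen list 3 of 7 measured genes were lower and the other 4 within 2-fold.

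No measured leukocyte serpin of clade B was lower or higher as deposited, while Serpinb1a (-1.04) and Serpinb9 (-1.35) passed the threshold with FPKM sums made equal. Of 16 members with this role 4 were measured, with 2 differences below and 2 above 0, all within 2-fold. Serpinb1a (ENSMUSG00000044734, chromosome 13, 32842092 to 32851185, minus strand) encodes the inhibitor that shields neutrophils from elastase, cathepsin G and proteinase 3. Its FPKM was 49.9 (BMT, 1394 reads) against 36 (aGVHD_V, 885 reads). The ratio was 0.722 with a widened interval from 0.424 to 1.17, which included no difference, and with an interval of single reads from 0.663 to 0.786, which did not. It was the highest serpin of the aGVHD_V library.

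The proteases that Serpinb1a binds were also within 2-fold. Elane (neutrophil elastase) was at 360 (BMT) against 365 FPKM (aGVHD_V), and Ctsg (cathepsin G) at 169 against 156. Prtn3 (proteinase 3) was at 200 against 338, with a ratio of 1.69 and a widened interval from 1.38 to 2.08. Prss57, a further granule protease of neutrophils, was at 4.64 against 2.57 on 78 reads. In FPKM, Elane, Prtn3 and Ctsg were above Serpinb1a in both libraries. The neutrophil list, which includes these proteases, was within 2-fold throughout.

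Serpinb6a and Serpinb6b are paralogs on chromosome 13 whose coding sequences were 86.3% identical. Serpinb6a (ENSMUSG00000060147, 33917918 to 34002794, minus strand), an inhibitor of cathepsin G, was at 5.64 FPKM (BMT, 370 reads) against 8.03 (aGVHD_V, 463 reads). Serpinb6b (ENSMUSG00000042842, 32965209 to 32979067, plus strand) was at 8.06 on 221 reads and 10.7 on 258 reads. Both values were higher under aGVHD_V, at ratios of 1.42 (widened interval 0.626 to 3.01) and 1.33 (0.419 to 3.61). With FPKM sums made equal the differences of 0.44 and 0.37 became -0.07 and -0.16. The Serpinb6a locus overlaps Ripk1, Nqo2 and 1110046J04Rik on the other strand, and 25.1% of its 50-base words, counting both strands, occur in other transcripts. The use of strand in the counting is not stated, so reads from the shared parts cannot be told apart. Nqo2 was at 5.71 against 3.64 FPKM and Ripk1 at 7.78 against 7.36.

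Serpinb9 (ENSMUSG00000045827, chromosome 13, 33003250 to 33017957, plus strand) encodes the intracellular inhibitor of granzyme B, by which killer lymphocytes and their neighbours survive the protease. Its FPKM was 8.54 (BMT, 362 reads) against 4.7 (aGVHD_V, 175 reads). The ratio of 0.55 had a widened interval from 0.139 to 1.59. Its target Gzmb was at 13.8 FPKM (241 reads) against 41.3 (633 reads), a ratio of 2.99 with a widened interval from 1.38 to 6.39. Whether the changes of the inhibitor and the protease differ was not tested.

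The other measured genes of the granzyme list rest on fewer reads. Gzmk (a granzyme of T cells) was at an FPKM of 1.13 against 7.56 and Prf1 (the pore-forming perforin) at 0.606 against 4.83, and both widened intervals included no difference. Among 5 measured granzyme and perforin genes, 3 were higher, 1 lower and 1 within 2-fold. The list of T and NK cells (2 of 7 measured genes higher, none lower) summed to 53.7 FPKM (BMT) against 103 (aGVHD_V), and its part in these values was not tested.

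Serpinb8, an inhibitor of the protease furin, had 34 reads under BMT and 0 under aGVHD_V. The remaining 11 genes of the leukocyte group, and all 9 other members of clade B, had no reads in either library. The genes without reads include Serpinb5 (maspin, of epithelia) and the Serpinb3 paralogs of squamous epithelium.

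**Figure D2:**
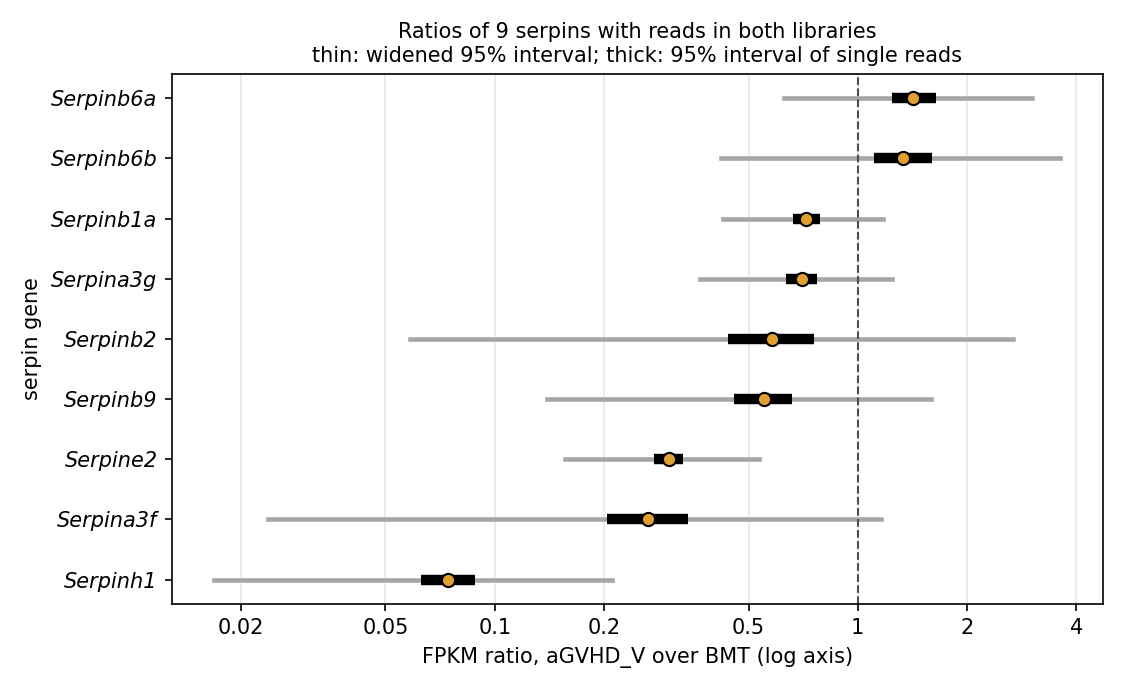
FPKM ratio of the aGVHD_V over the BMT library (log axis) for 9 of the 10 serpins with reads in both, with the widened 95% interval as a thin line and the 95% interval of single reads as a thick line. The widened interval stays below 1 for Serpinh1 (0.0169 to 0.211) and Serpine2 (0.156 to 0.534) and spans 1 for the other 7.

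The clade A serpins with reads belonged mainly to the Serpina3 paralogs, mouse relatives of antichymotrypsin. Serpina3g (ENSMUSG00000041481, chromosome 12, 104236245 to 104241939, plus strand), also called Spi2A, is an inhibitor of lysosomal cathepsins found inside activated lymphocytes and myeloid cells. Its FPKM was 40.3 (BMT, 1030 reads) against 28.2 (aGVHD_V, 634 reads). The ratio of 0.7 had a widened interval from 0.368 to 1.24. With FPKM sums made equal its difference of -0.50 became -1.08. It ranked 3 of the serpins under BMT and 2 under aGVHD_V.

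Serpina3f (ENSMUSG00000066363, chromosome 12, 104214544 to 104221129, plus strand), its neighbour, was at 11.7 FPKM (BMT, 326 reads) against 3.11 (aGVHD_V, 76 reads). The ratio was 0.265, and its widened interval from 0.0238 to 1.16 included no difference. The aGVHD_V reads are below the floor of 132. Serpina3f and Serpina3g share the promoter element marked above, and the identity of their coding sequences is given there. Summed over the 10 Serpina3 paralogs, which depends less on how reads were divided among them, the FPKM was 54.6 against 31.4, 1.74-fold lower.

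Serpina3c, just inside the limit for a measured gene, was at 1.12 FPKM (BMT, 30 reads) against 0, too few reads for a fold. Serpina3b, just outside that limit at 0.996 FPKM (25 reads), and Serpina3n (10 reads), an acute-phase inhibitor secreted by the liver and by stimulated stromal cells, showed the same pattern below an FPKM of 1. So did Serpina12 (33 reads), the adipokine vaspin, and Serpina11 (8 reads). All 6 Serpina1 paralogs, which encode the antitrypsin of the plasma, had no reads in either library.

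Of 7 cathepsins and caspases that cross-class serpins can meet, 5 lay within 2-fold and 2 were lower. Ctsb, cathepsin B, was at 94.3 (BMT) against 104 FPKM (aGVHD_V), and Ctsh at 14 against 9.38. Ctsl, cathepsin L, was 2.38-fold lower (21.4 against 9.02, widened interval from 1.37-fold to 4.46-fold lower). Ctsk, the collagen-cutting cathepsin of osteoclasts and some stromal cells, was at 13.7 against 0, with a widened interval that began at 1.22-fold lower and a bound of at least 1.67-fold lower against the floor.

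Among the serpins of clotting and transport, Serpinc1 (antithrombin), Serpind1 (heparin cofactor), Serpina5, Serpina10 and the hormone carriers Serpina6 and Serpina7 had no reads in either library. Serpini1, neuroserpin, an inhibitor of the tissue-type activator in neurons, was at 1.3 FPKM (115 reads) against 0, too low for a bound above 1. Serpini2 had no reads. The clotting factors and cofactors were present only in part. Among 10 measured genes 4 were lower, 1 higher and 5 within 2-fold. Tfpi, the inhibitor of the tissue factor pathway, was at an FPKM of 10.9 against 2.15 and Thbd, thrombomodulin of endothelium, at 7.91 against 1.79. Their aGVHD_V reads, 125 and 71, are below the floor, and the widened interval of Thbd (0.018 to 1.02) included no difference. F10, factor X, was at 12.9 against 8.9, and F3, tissue factor, was at 0 against 3.75 on 101 reads, below the floor.

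**Figure D3:**
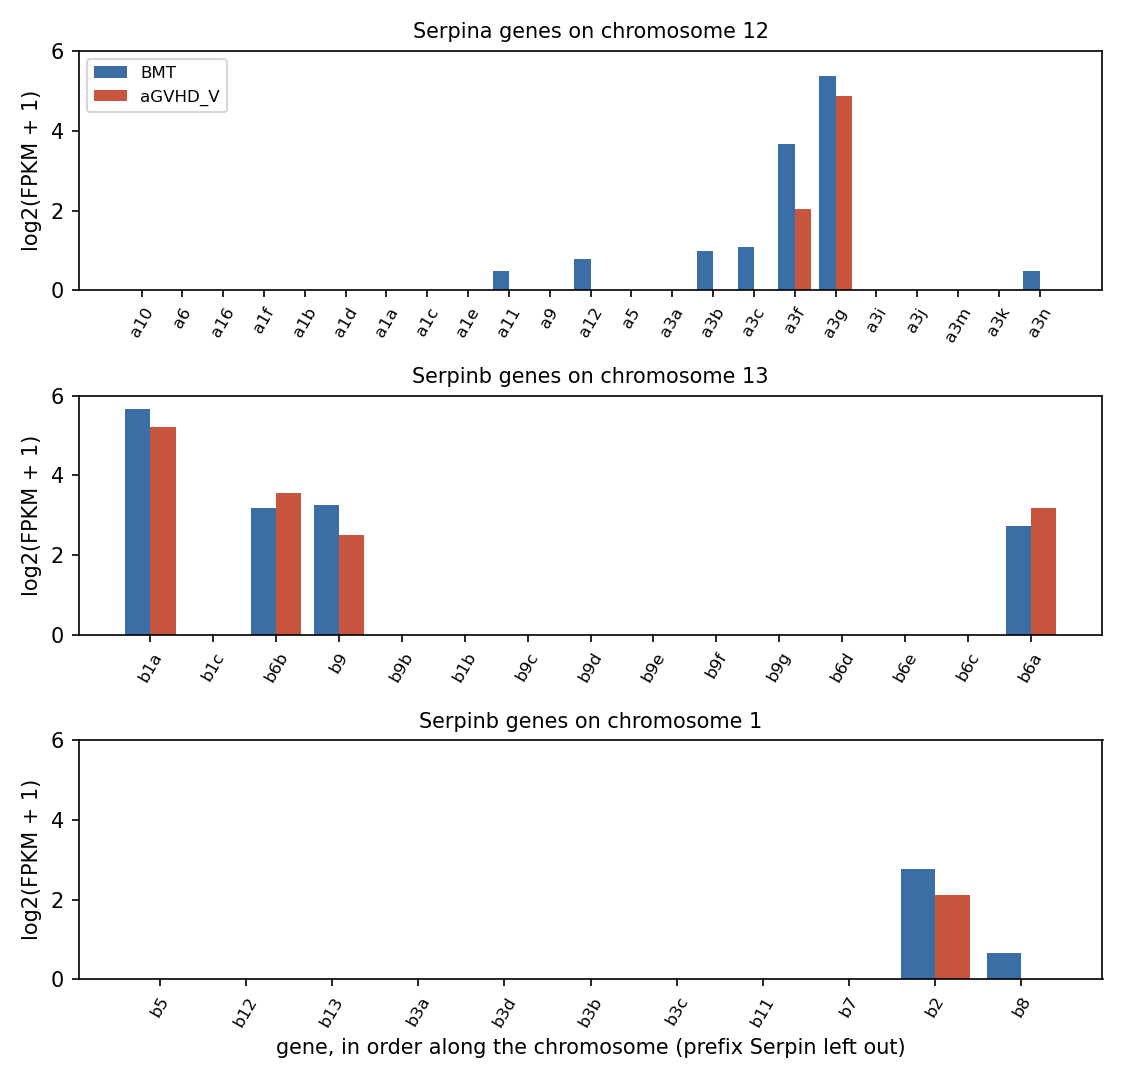
log2(FPKM + 1) of the serpin genes in their order along 3 chromosome blocks, with BMT and aGVHD_V bars, 1 library each. Reads fall on 7 of 23 Serpina genes of chromosome 12, 4 of 15 Serpinb genes of chromosome 13 and 2 of 11 Serpinb genes of chromosome 1, with neighbours without reads between them.

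The expressed serpins were scattered among paralogs without reads. In the chromosome 13 block, from 32842092 to 34002794, reads were found for Serpinb1a, Serpinb6b, Serpinb9 and Serpinb6a, and for none of the other 11 genes. The other Serpinb1 genes had coding sequences 90.6% and 89.7% identical to Serpinb1a and no reads. In the chromosome 12 block, from 103614786 to 104414329, the genes with an FPKM above 2 were Serpina3f and Serpina3g, which lie next to each other. The start and end of all 60 genes were the same in GENCODE M21 as in the table.

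For genes without reads, the floor limits what can be said. Whether they were expressed below it was not tested. For the 41 serpins without reads in either library, the floor of 3 counts of the modal read number corresponds to 0.405 to 2.85 FPKM (BMT) and 1.45 to 10.2 FPKM (aGVHD_V), depending on gene length. In the BMT range from 0.2 to under 1.5 FPKM, all 8 serpins lacked aGVHD_V reads, and 56.3% of the 2640 protein-coding genes in this range had none. The range was set on BMT levels alone, which favours a lack of aGVHD_V reads. The aGVHD_V floors of these 8 serpins (1.7 to 7.56 FPKM) lay above their BMT values, so the lack of reads does not show a lower level. The serpins without reads in either library were 68.3% of the family, and such genes were 40% of all protein-coding genes.

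Seen as a sum, the serpin FPKM was 257 (BMT, 9466 reads) against 123 (aGVHD_V, 3974 reads). Serpinh1 made up 29.3% of the sum under BMT and 4.56% under aGVHD_V. The leukocyte serpins of clade B made up 28.3% and 48.4%, and the Serpina1 and Serpina3 paralogs 21.3% and 25.5%. The order of levels was unlike too. For single levels the reads were divided by the modal read number and the 95% interval was exact Poisson. Under BMT the interval of Serpinh1 (64.1 to 87.9) did not reach that of Serpinb1a (40.6 to 60.7). Those of Serpinb1a and Serpina3g (31.7 to 50.7) overlapped. Under aGVHD_V the intervals of Serpinb1a (22.1 to 55.6) and Serpina3g (15.6 to 47.1) overlapped, so their order is not resolved.

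**Figure D4:**
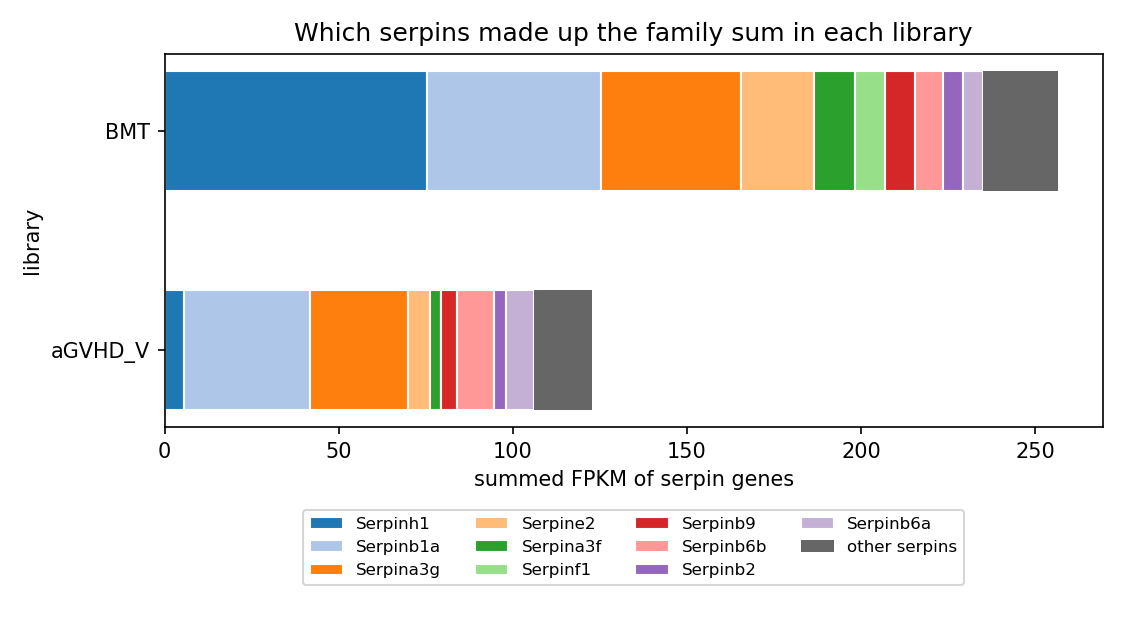
Summed FPKM of the serpin genes in each library, stacked by gene from a true zero, with 10 genes shown singly and the rest together. The Serpinh1 block takes 75.3 of 257 (BMT) and 5.61 of 123 (aGVHD_V), while the Serpinb1a and Serpina3g blocks take 49.9 and 40.3 against 36 and 28.2.

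Inhibitors outside the family gave a mixed picture beside the serpins. Among 18 measured, 4 were lower, 4 higher and 10 within 2-fold (median difference 0.38). The stefins Stfa3 and BC100530, inhibitors of cysteine proteases in myeloid cells, were at 1.2 against 27.5 FPKM (6 and 121 reads) and 1.88 against 22.8 FPKM (18 and 192 reads). The Stfa3 reads were under the floor in both libraries, and the BC100530 reads were under the floor of 42 in the BMT library. Both genes belong to a family of near-identical copies, so the division of reads among them is uncertain. Cst3, cystatin C, was at 173 against 113. Timp1, an inhibitor of metalloproteinases, was at 5.85 against 0 on 63 BMT reads, too few for a bound above 1, and Wfdc21, a small secreted protein of neutrophils, at 143 against 280. Serping1, the complement inhibitor left out of the members, was 6.01-fold lower (129 against 21.5, widened interval from 3.39-fold to 11.7-fold lower).

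**Figure D5:**
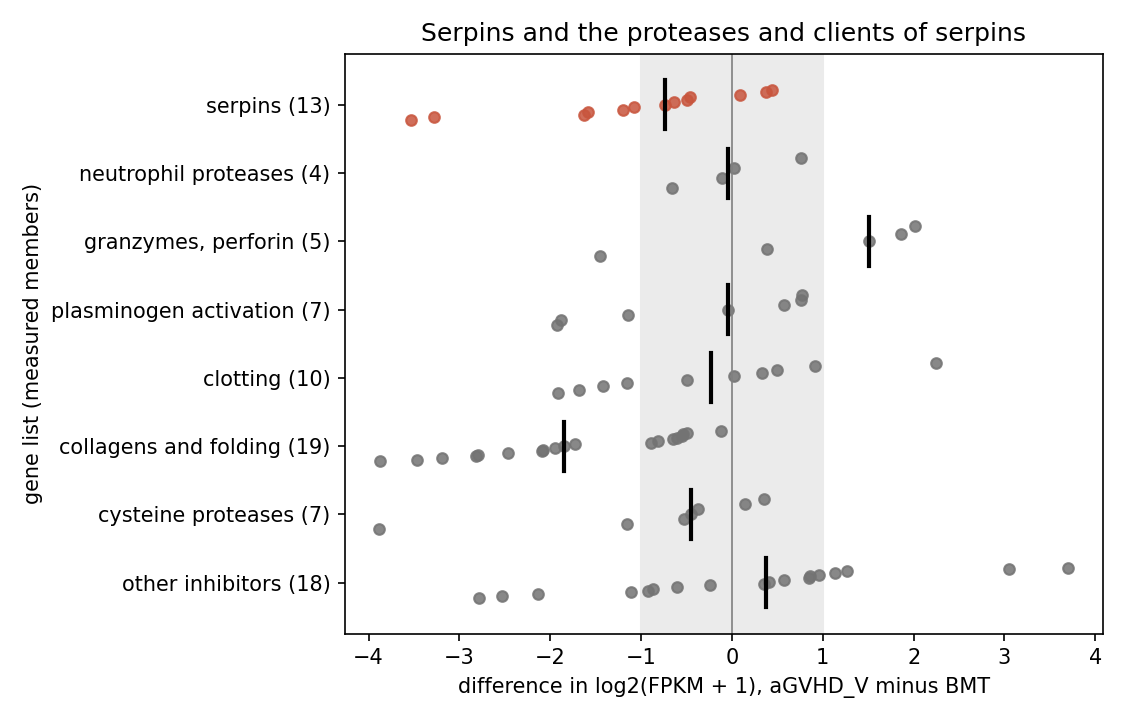
Difference in log2(FPKM + 1), aGVHD_V minus BMT, for each measured serpin and each measured gene of 7 lists of proteases, clients and other inhibitors, with black bars at the medians and the range within 2-fold shaded. Serpins have a median of -0.74, collagens and their folding enzymes of -1.85, neutrophil proteases of -0.05 and granzymes with perforin of 1.51.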

How the data were processed

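RNA of sorted marrow stromal cells was sequenced in 2 libraries, grouped by their titles. The values are FPKM per gene as deposited by the authors, and 1 column of values that fits no label was left out. Builds GRCm38 and mm10 and the tool edgeR 3.18.1 come from the submitters' processing notes. Aligner, counter, read length and strand setting: not given in the sources used here.

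FPKM times gene length were whole multiples of a fixed step for 100.0% of values above 0 (tolerance 0.05), so reads were recovered, 10869191 in the BMT and 11299834 in the aGVHD_V library. Differences are log2(FPKM + 1), which understates low genes. The modal read number was the peak of a moving window of 7 read numbers from 4 upwards. The floor of 3 counts is 42 and 132 reads. For a listed symbol with several rows, the one with most reads was used. With 1 library a group no test was made. Read recovery and intervals were tested on simulated data. The simulated reads came singly or in groups of the modal read numbers, with a few single reads added as the smallest step. Such data check the code and not whether these assumptions hold in the libraries. Python 3.11.15 and scipy 1.17.1 were used.

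The members and lists were chosen with earlier results of these data known. The rule named every measured serpin and, of each list, its top gene by mean FPKM and up to 3 of largest absolute difference, with 10 genes always named where measured. Cst3, Serping1, Plat, Tek, Nqo2, Ripk1, Serpinb10 and the serpins below an FPKM of 1 were named after their values were seen. The values of 1 measured member are not reported here, while counts and sums over the family include it. Alternatives were 2 pseudocounts, 5 scalings, 2 filters, genes without reads at the floor, and summed paralogs.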

Additional observations from a re-analysis of the deposited data

How the results depend on the processing

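No serpin was at least 2-fold higher under any of the 11 alternatives, and the median difference ranged from -1.35 to -0.42. An interval taken from the sorted values of the members (-1.63 to 0.09) holds this range. It treats genes of 1 library pair as replicates, so lying within it is no check. The count of lower serpins was 6 of 13 as reported. It was 10 with FPKM sums made equal and 3 with genes without reads at the floor, and 4 to 6 under the others. These settings also moved the share of all measured genes called lower, from 19.4% to 33.8% and 7.63%. With equal sums the ratio of the serpin sums moved from 0.479 to 0.321. An interval of 0.38 to 0.597 around 0.479 was computed on the pooled serpin reads, divided by the modal read numbers, and rescaled to that ratio. The median over all genes moved from -0.07 to -0.62 with equal sums (to -0.28 with library sizes of all recovered reads). Lower genes made up 84.5% of those outside 2-fold with equal sums, in place of 69.2%. With genes at the floor that share was 56.7%, with a pseudocount of 5 it was 58.6% and with an FPKM minimum of 5 it was 58.2%. Serpinh1, Serpine2 and Serpina3f stayed at least 2-fold lower under all 8 alternatives run for single genes. The floor setting moved only genes without reads, so Serpina3f kept its difference of -1.63 there and was not tried at its floor. Its aGVHD_V value (3.11 FPKM on 76 reads) lay below that floor of 5.41 FPKM. The widened interval of Serpina3f (0.0238 to 1.16) included no difference. Serpinf1 was at -0.64 at its floor and Serpini1 and Serpina3c at 0.00. Serpinb1a (-1.04), Serpina3g (-1.08), Serpinb9 (-1.35) and Serpinb2 (-1.25) passed the threshold with equal sums. Serpinb6a and Serpinb6b turned negative under 1 alternative. No paired analysis was possible because each group has 1 library, and leaving out a library leaves no comparison.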

Other observations

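The table also holds serpin rows that are not protein-coding members. Serpinb10, annotated as a polymorphic pseudogene on chromosome 1, had an FPKM of 1.3 (BMT, 55 reads) against 1.96 (aGVHD_V, 73 reads). The transcribed pseudogene Serpina3h on chromosome 12, which shares 50-base words with Serpina3g, had 8 reads under BMT and 0 under aGVHD_V. The pseudogenes Serpina3e-ps, Serpina3d-ps, Serpina3l-ps, Serpina4-ps1 and Serpinb1-ps1 had no reads in either library.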
